A study of Drosophila melanogaster with 312 samples.

Results

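Control population 2 (C2) of Drosophila melanogaster was followed over 13 generations of rearing without selection for sleep, and its males from generations 10 to 13 (late) were compared with its males from generations 0, 2, 3 and 4 (early). The comparison took every male library of C2 from these generations, 8 late and 8 early, which is 16 of the 312 RNA sequencing libraries of the series. All libraries came from whole bodies of adult flies. The starting stock was an outbred intercross of inbred lines from the Drosophila Genetic Reference Panel, the 5 that slept longest and the 5 that slept least. From it 6 populations were made: 2 selected for long night sleep (L1 and L2), 2 selected for short night sleep (S1 and S2) and 2 controls (C1 and C2), whose parents were picked at random. Each population gave 2 pools of males in every generation used here. The 2 pools of a generation came from the same rearing of the population and were summed, so that a generation was the replicate, 4 late against 4 early. C2 is 1 population, so the p-values cover the spread between its generations and say nothing of other control populations. Each generation was bred from the one before, so the generations of a group are related, whereas the test treats them as independent.

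An unselected population kept with few parents changes by genetic drift, the random loss and gain of alleles. Its expression also moves with everything that differs between generations, such as food, handling, RNA preparation and sequencing. Drift runs separately in each population, whereas conditions common to a generation can act on every population reared in it. Whether a change came from drift, from such conditions or from something else was not tested. The 5 other male populations were reared and frozen in the same generations as C2, so they give the measure of what C2 shared. In whole-body RNA, fewer cells of a type and less RNA per cell cannot be told apart.

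Late libraries of C2 males held 37166284 to 90883614 counts on genes, against 36863886 to 45951406 in early libraries. Both pools of generation 11 were the deepest, with 90883614 and 78069501, and no other late library was above 39374695. The male dosage compensation RNAs roX1 and roX2 summed to 25793 to 36555 normalized counts late and 18788 to 28666 early, and testis markers to 139442 to 234851 late and 171060 to 215950 early, so each library carried a male transcriptome. Of 24 markers of yolk, eggshell and female germline, 14 were high enough to test, and their summed level was 6160 to 10012 late against 4809 to 6441 early. The highest sum was that of pool 2 of generation 12. Among these markers only osk, which assembles the germ plasm of the egg, passed the test (161 ± 153 late, 50.2 ± 28.9 early, SD, n = 8 libraries each), and its highest values were 483 in pool 2 of generation 12 and 281 in pool 1 of generation 13. The part of female RNA in the results of C2 was not tested. In the other populations 4 male pools stood apart by the same 24 markers, at 639917 in pool 2 of L1 at generation 8, 296116 in pool 2 of S2 at generation 0, 238129 in pool 2 of S1 at generation 5 and 35096 in pool 1 of S2 at generation 2, whereas the other 152 male libraries of the series, C2 included, lay at 4809 to 10012. These 4 were left out of the means of single generations below. The 2 of S2 are early libraries and were in the fits, so the main counts that use S2 are also given without them. Where no such value is given, as for most single genes, the levels, fold changes and calls of S2 include these 2 pools.

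Of 13326 genes tested, 433 differed between late and early C2 males (3.25%), called at a Benjamini-Hochberg adjusted p under 0.05 in the quasi-likelihood test of edgeR. Late males had 227 genes higher (1.70%) and 206 lower (1.55%). The median absolute log2 fold change was 0.73 among these genes and 0.22 over all genes tested. In 304 of the 433 genes (70.2%) the 8 late libraries did not overlap the 8 early libraries in normalized count, 168 of them higher late and 136 lower, whereas 727 of all genes tested (5.46%) were separated in this way. The lowest adjusted p was 0.0161, and 3993 genes had an unadjusted p under 0.05. The count rested on single generations. With generation 11 left out 0 genes passed (3176 at an unadjusted p under 0.05), with generation 3 left out 4 passed, with generation 2 left out 5 and with generation 12 left out 6, whereas without generation 10 the count was 1937. Each gene called below is therefore a call that the full set of 8 generations gives.

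The 433 genes did not drift steadily from the early to the late level. Generations 5 to 9 of C2 were not used in the test, and on a scale where 0 is a gene's early and 1 its late mean log2 level, the median gene stood at -0.04 in generation 5, 0.12 in generation 7 and 0.11 in generation 8. It stood at 0.43 in generation 6 and at 0.97 in generation 9. In generation 9, 385 of the 433 genes (88.9%) were nearer to the late level, against 57 (13.2%) in generation 8. The step thus fell between generations 8 and 9 for most of these genes.

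The same steps were seen in the other populations. Taken in the direction of the C2 change, the median gene of the 433 had moved in generation 9 by 0.68 on the log2 scale in C2, 0.61 in C1, 0.63 in L1, 0.63 in L2, 0.55 in S1 and 0.61 in S2, each from the population's own early mean. All 6 then fell back in generation 10, to 0.47 in C2 and 0.31 to 0.38 in the others, and stood highest in generation 11, at 0.88 in C2 and 0.75 to 0.97 in the others. In generation 8, before the step, C2 stood at 0.07 and the others at -0.24 to 0.05. Generation and whatever was common to its libraries, such as the rearing round or the sequencing, cannot be told apart in this design.

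**Figure D1:**
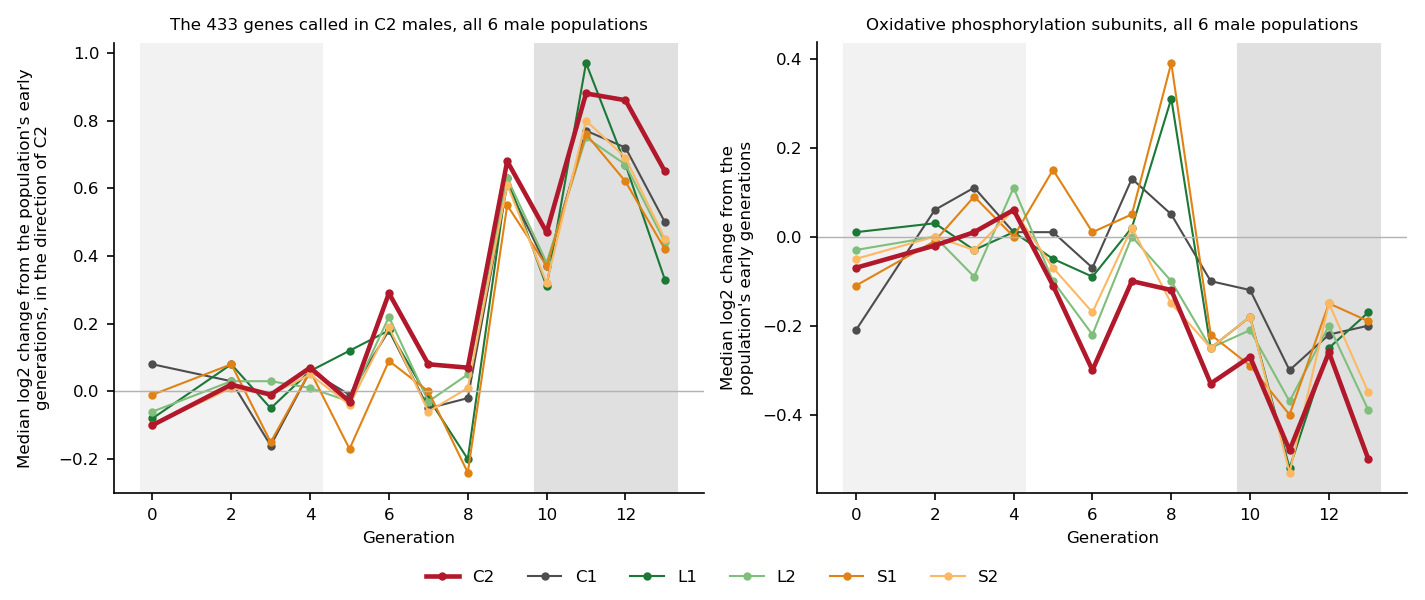
Median log2 change in each generation from a population's own early mean, for the 433 genes called in C2 males with the sign of the C2 change (left) and for 83 oxidative phosphorylation subunits (right). Each line is 1 male population, light shading marks the early and dark shading the late generations, and C2 (thick line) stood at 0.68 in generation 9 in the left panel, where the others stood at 0.55 to 0.63. The 4 male pools of L1, S1 and S2 with female RNA are left out.

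Gene by gene, 354 of the 433 genes (81.8%) had the sign of the C2 change in all 5 other male populations, against 7006 of all genes tested (52.6%). At least 1 of the 5 called the change in the same direction for 371 genes, and for 62 genes none did. C1, the other control, called 264 of the 433 in the same direction, 61.0% of the C2 list and 16.5% of its own 1603 genes (12.0% of those tested). L2 called 262, 60.5% of the C2 list and 21.7% of its own 1209 (9.07% of those tested). S1 called 174, 40.2% of the C2 list and 17.4% of its own 999 (7.50%). L1 called 86, 19.9% of the C2 list and 14.7% of its own 584 (4.38%). S2 called 25, 5.77% of the C2 list and 20.3% of its own list, the shortest of the 5 (0.923%), but this count rested on its 2 early pools with female RNA. Without them, a choice made after seeing the data, S2 called 1165 genes (8.74%) and 253 of the C2 list in the same direction, 58.4% of the C2 list and 21.7% of its own. In that setting 370 of the 433 genes had the sign of C2 in all 5 others, 383 were called by at least 1 of them and 50 by none. Opposite calls were few: 0 in C1 and S1, 1 in L1, 2 in S2 and 5 in L2.

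Of the 433 genes, 2 were called in the same direction in all 6 male populations, and 18, these 2 among them, without the 2 pools of S2. They are named here although their values were known when they were picked. One was UQCR-14, a subunit of respiratory complex III, described with its group. The other was chic, which encodes the actin-binding protein profilin (25962 ± 5548 normalized counts late, 14727 ± 1879 early, SD, n = 8 each, log2 fold change 0.82, adjusted p = 0.0448 by edgeR). Its log2 fold change lay between 0.84 and 0.96 in the other 5 populations.

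C2 females, which the male comparison did not use, moved the same way for most tested genes of the male list. Of 10537 genes tested in these females, 2766 were called between late and early (26.3%). The male list had 343 members tested in females, of which 249 were called in the same direction, 72.6% of those 343 and 9.00% of the female calls, and none in the opposite direction. These females were reared with the males, so generation is shared here too.

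The largest group of falling genes encoded the mitochondrial respiratory chain. Oxidative phosphorylation passes electrons through complexes I to IV of the inner mitochondrial membrane and makes ATP at complex V. Of 83 nuclear-encoded subunits tested, 19 were lower in late C2 males and 0 higher. The list's median log2 fold change was -0.37, against -0.01 over all genes, and 79 of 83 members were below 0. Summed over the list, late libraries held 425003 to 538760 normalized counts and early libraries 543718 to 705754, so the groups did not overlap. The lowest early library was pool 2 of generation 0.

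UQCR-14 had 3585, 4274 and 4968 normalized counts as the lowest, median and highest late library, against 6132, 8441 and 10477 in early libraries. No late library reached the lowest early one, and the log2 fold change was -0.99 ± 0.11 (SE; adjusted p = 0.0161 by edgeR). COX7AL2, a subunit of complex IV, fell further, with 463, 535 and 768 late against 1138, 1481 and 2153 early (log2 fold change -1.36 ± 0.16, adjusted p = 0.0161). In COX5B, also of complex IV, late libraries lay at 3978, 4397 and 4955 and early libraries at 5636, 7022 and 8122 (log2 fold change -0.68 ± 0.10, adjusted p = 0.0214). Calls were found in complexes I (ND-B8, ND-42 and 7 more), II (SdhC), III (UQCR-11), IV (COX4, COX7C) and V (ATPsynbeta, ATPsyngamma, ATPsynO), with log2 fold changes between -0.39 and -1.38 over the 19 genes. Within C2 the list stood at a median of -0.30 in generation 6, -0.10 in generation 7, -0.12 in generation 8 and -0.33 in generation 9.

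The other populations had this fall too. The median of the list was -0.21 in C1, -0.30 in L1, -0.28 in L2, -0.25 in S1 and -0.23 in S2, with 12, 4, 25, 10 and 2 members called lower and none called higher. Without the 2 pools with female RNA, S2 had a median of -0.31 and 20 members called lower. No member differed between C2 and the mean of the other 5. In C2 females 33 of 71 members were lower and none higher, with a median of -0.34.

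Of 14 genes of the mitochondrial genome tested, 12 had fitted log2 fold changes below 0, and 1 passed the test. This was mt:ND2, a complex I subunit, with 36.4, 76.0 and 145 normalized counts as the lowest, median and highest late library and 161, 388 and 544 early (log2 fold change -2.17 ± 0.39, adjusted p = 0.0334 by edgeR). Its fold change was -1.96 to -2.58 in the other 5 populations, called in 4 of them. The other 13 did not pass. Among them mt:srRNA had -2.81, mt:ND3 -2.25, mt:ND6 -2.12 and mt:ND5 -1.64, while mt:ND1 (0.80) and mt:CoIII (0.38) were above 0. These RNAs were counted after poly(A) selection of the libraries.

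Proteins of the mitochondrial ribosome fell in part. Of 72 tested, 5 were lower and 0 higher, with a median of -0.16. mRpL49 averaged 407 late and 682 early (log2 fold change -0.74, adjusted p = 0.0383), mRpL28 1658 late and 2278 early (-0.46, adjusted p = 0.0401) and mRpL36 269 late and 425 early (-0.65, adjusted p = 0.0409). Of 91 cytoplasmic ribosomal proteins, RpS14a (9121 late, 15580 early) and RpL39 (10184 late, 17687 early) were called lower, and 89 were not called. RpS14a has a nearly identical neighbour gene, so its reads may be split between the pair. Prosalpha5 was the 1 of 46 proteasome subunits called, with 3655 late and 5304 early. The shares lower were 2.2% of cytoplasmic ribosomal proteins and 2.17% of proteasome subunits, near the 1.55% over all genes.

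Heat shock genes, chaperones that rise when proteins unfold, included 4 members lower in late C2 males of 19 tested and 0 higher. For Hsp70Bbb and Hsp68 the same 3 early libraries were the highest. Hsp70Bbb, an inducible Hsp70 copy, had 0.99, 2.33 and 4.46 normalized counts as the lowest, median and highest late library and 2.29, 6.96 and 236 early. The high early values were 236 in pool 1 of generation 2, 162 in pool 1 of generation 3 and 51.1 in pool 2 of generation 4, while the other 5 early libraries lay at 7.93 or less and overlapped the late ones. Hsp70Bbb passed the filter for testing only through these 3 high early libraries. Its fitted log2 fold change was -4.53 ± 0.87 (adjusted p = 0.039 by edgeR), and the call was lost without pool 1 of generation 2 (adjusted p = 0.0526) or pool 1 of generation 3 (adjusted p = 0.0603). Hsp68 was high in the same 3 libraries (6861, 6201 and 4715) and averaged 2660 late and 4204 early (adjusted p = 0.044). Hsp67Bc, a small heat shock protein, averaged 137 late and 214 early (adjusted p = 0.0463) without overlap of the groups. The 4 genes, the last being Hsp70Ba, were called in the same direction in none of the other 5 populations, but none of them differed from the mean of the 5 by the test of the difference. In C2 females the list went the other way, with 3 of 18 members tested higher, 0 lower and a median of 0.54. The Hsp70 genes are near-identical copies, so their separate counts are uncertain.

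Several genes of digestion and detoxification were called. Of 27 digestive serine proteases 3 were lower (11.11%, against 1.55% over all genes) and 0 higher (median -0.36). Jon99Fii averaged 1417 late and 4427 early, and the groups did not overlap (log2 fold change -1.64, adjusted p = 0.044). Jon65Ai averaged 662 late and 1706 early (-1.37, adjusted p = 0.0448). CG1304, a predicted serine protease that the study used as an example gene, had 162, 222 and 442 normalized counts as the lowest, median and highest late library and 321, 520 and 983 early (-1.29 ± 0.28, adjusted p = 0.045). CG1304 was also called lower in C1, and in none of the 4 selected populations. Its mean log2 fold change over the other male populations, C1 included, was -2.18, against -1.29 in C2. A missing call therefore does not show that a selected population kept its level.

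Of 34 glutathione S-transferases, which conjugate toxic compounds to glutathione, 4 were lower (11.76%, against 1.55% over all genes) and 0 higher (median -0.36). GstD2 averaged 277 late and 1002 early (log2 fold change -1.84, adjusted p = 0.0258), and its early libraries ran from 288 to 2337, overlapping the late range of 106 to 497. GstD7 (78.0 late, 186 early) and GstE6 (2381 late, 3767 early) also fell. The GstD and GstE genes are clusters of similar copies. Of 31 UDP-glycosyltransferases, which add sugars to toxins, Ugt37A2 (1418 late, 3563 early) and Ugt35B1 (3979 late, 6327 early) were lower without overlap. These were 6.45% of that list. Among 80 cytochrome P450 genes, oxidizing enzymes of the same pathways, Cyp6w1 (28717 late, 19033 early) and Cyp6t3 (806 late, 480 early) rose and Cyp4d8 (203 late, 412 early) fell. The P450 shares, 2.5% higher and 1.25% lower, were near the 1.70% and 1.55% over all genes.

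Genes of male reproduction tended lower. Accessory glands make the seminal fluid proteins that change the mated female's behaviour. Of 57 such genes 3 were lower and 0 higher (median -0.48, with 51 of 57 below 0). Acp62F, a protease inhibitor of the seminal fluid, had 2897, 4125 and 5107 normalized counts as the lowest, median and highest late library and 6554, 8412 and 10398 early, without overlap (adjusted p = 0.0234 by edgeR). Sfp70A4 averaged 629 late and 1051 early, and Sfp33A2 186 late and 434 early. The list's median was also below 0 in the other populations, at -0.57 in C1, -0.13 in L1, -0.50 in L2, -0.59 in S1 and -0.29 in S2. In S2 it was -0.41 without the 2 pools with female RNA. The 9 accessory gland markers summed to 92067 to 160648 late and 129328 to 199971 early, and the part of gland size was not tested. Of 23 sperm and late spermatid genes, Mst84Da (7835 late, 13353 early) and Mst84Db (6853 late, 12060 early), neighbouring genes for proteins of the sperm tail, were lower.

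Insulin signalling genes were among the few groups with rises. Insulin-like peptides act through Akt and S6 kinase to promote growth. Of 18 tested, 3 were higher late and 0 lower (median 0.20). Akt had 4373, 5657 and 6332 normalized counts as the lowest, median and highest late library and 2679, 3708 and 3948 early, without overlap (log2 fold change 0.63 ± 0.12, adjusted p = 0.0369 by edgeR). S6k had 4005, 5603 and 6008 late and 2696, 3369 and 3484 early, again without overlap (0.68 ± 0.12, adjusted p = 0.0341). Ilp6, an insulin-like peptide of the fat body, averaged 768 late and 462 early (adjusted p = 0.0487). Akt and S6k were called higher in 3 of the other 5 populations each and Ilp6 in 2, each with S2 in addition when its 2 pools with female RNA were left out, and the list's median was 0.19 to 0.26 in the other 5.

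Of 24 sleep-regulating channels, receptors and adaptors, inc was higher and 0 were lower (median 0.22). inc, insomniac, is an adaptor of the Cul3 ubiquitin ligase whose loss shortens sleep in flies, and it averaged 2850 late and 2039 early without overlap (log2 fold change 0.48 ± 0.10, adjusted p = 0.044 by edgeR). inc was called higher in 2 other populations, and in S2 as well without those 2 pools. With all pools the list's median was 0.24 to 0.36 in the other 5, and without those 2 pools it was 0.21 in S2. Among 21 fat storage and mobilization genes AkhR, the receptor of the adipokinetic hormone, was lower (1176 late, 1713 early). Of 35 odorant-binding proteins Obp51a (4275 late, 8818 early) and of 40 cuticle proteins Cpr62Bb (482 late, 834 early) were lower. These shares, 2.86% and 2.5%, were near the 1.55% lower over all genes. Of 1270 noncoding RNA genes, 21 were higher (1.65%) and 17 lower (1.34%), close to the shares over all genes.

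Several groups had no call. These were the antimicrobial peptides and Bomanins (30 tested), peptidoglycan recognition proteins (11), Turandot stress genes (4), maltases, amylases and lysozymes (19), Y-linked fertility genes (12), meiotic arrest genes of the testis (10), circadian clock genes (14), phototransduction genes (20), sarcomere genes (21), metallothioneins (6) and ecdysone and juvenile hormone response genes (18). The Turandot genes, secreted stress factors, had a median of 2.13, with a summed level of 57380 in pool 2 of generation 12 and 1947 to 14509 in the other late libraries, against 907 to 4366 in early libraries.

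**Figure D2:**
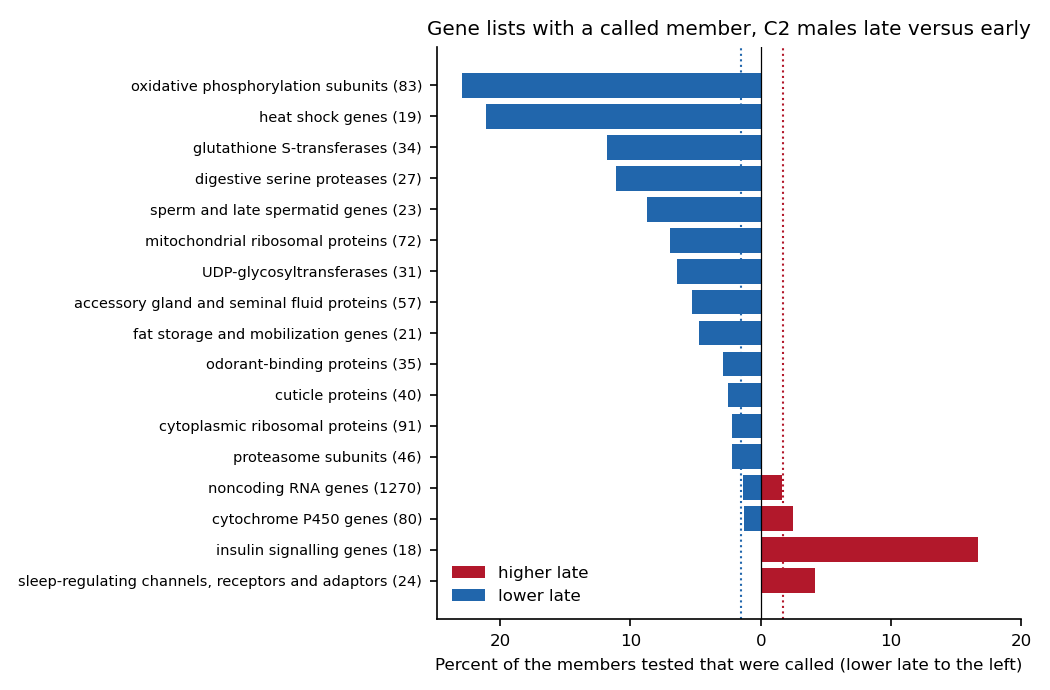
Percent of the tested members of each gene list that were higher (right, red) or lower (left, blue) in late than in early C2 males, with the number tested in parentheses and the shares over all genes (1.70% and 1.55%) as dotted lines. The 19 of 83 oxidative phosphorylation subunits and 4 of 19 heat shock genes had the highest shares lower, and 3 of 18 insulin signalling genes the highest share higher.

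Among genes whose groups did not overlap, the 10 largest rises and 10 largest falls included noncoding RNAs, short coding genes and a few genes of known role. Met75Cb had 719, 1036 and 2740 normalized counts as the lowest, median and highest late library and 173, 339 and 667 early (log2 fold change 1.73, adjusted p = 0.0448 by edgeR). CG43117 averaged a low level throughout, with late libraries from 22.3 to 85.7 and early libraries from 9.09 to 19.3 (1.77, adjusted p = 0.0391). BthD, a selenoprotein of the fly, ranged from 113 to 397 late and from 68.6 to 99.4 early (1.27, adjusted p = 0.0416). CG34211 (1.54), CG34054 (1.27) and snoRNA:Psi28S-3385b (1.52) were each called in 3 or 4 of the other populations. CG34291 (1.38) and Met75Cb were called in none of them. The mean log2 fold change over the other 5 populations was 0.18 for CG34291 and 1.08 for Met75Cb. Neither gene differed from the mean of the 5 by the test of the difference. CG43117 and snoRNA:Psi28S-3385b passed the filter for testing only through late libraries, where they were high.

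The largest fall among genes without overlap was that of asRNA:CR44030, with 9.39, 42.7 and 84.5 normalized counts as the lowest, median and highest late library and 135, 206 and 333 early (log2 fold change -2.24 ± 0.31, adjusted p = 0.0207 by edgeR). It was already at 29.1 and 29.8 in the pools of generation 9, within the late range. Next came mt:ND2 (-2.17), lncRNA:CR45448 (-2.13), asRNA:CR43787 (-1.97) and CG13946 (-1.91). CG10725 (-1.87), CG42713 (-1.83), Jon99Fii (-1.64), lncRNA:CR43753 (-1.52) and lncRNA:CR42844 (-1.48) completed the falls. Of these genes, lncRNA:CR45448, asRNA:CR43787 and CG42713 passed the filter for testing only through early libraries, where they were high. The strand setting of the counting is not given in the sources used here, so reads of antisense RNAs may include those of their partner genes.

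**Figure D3:**
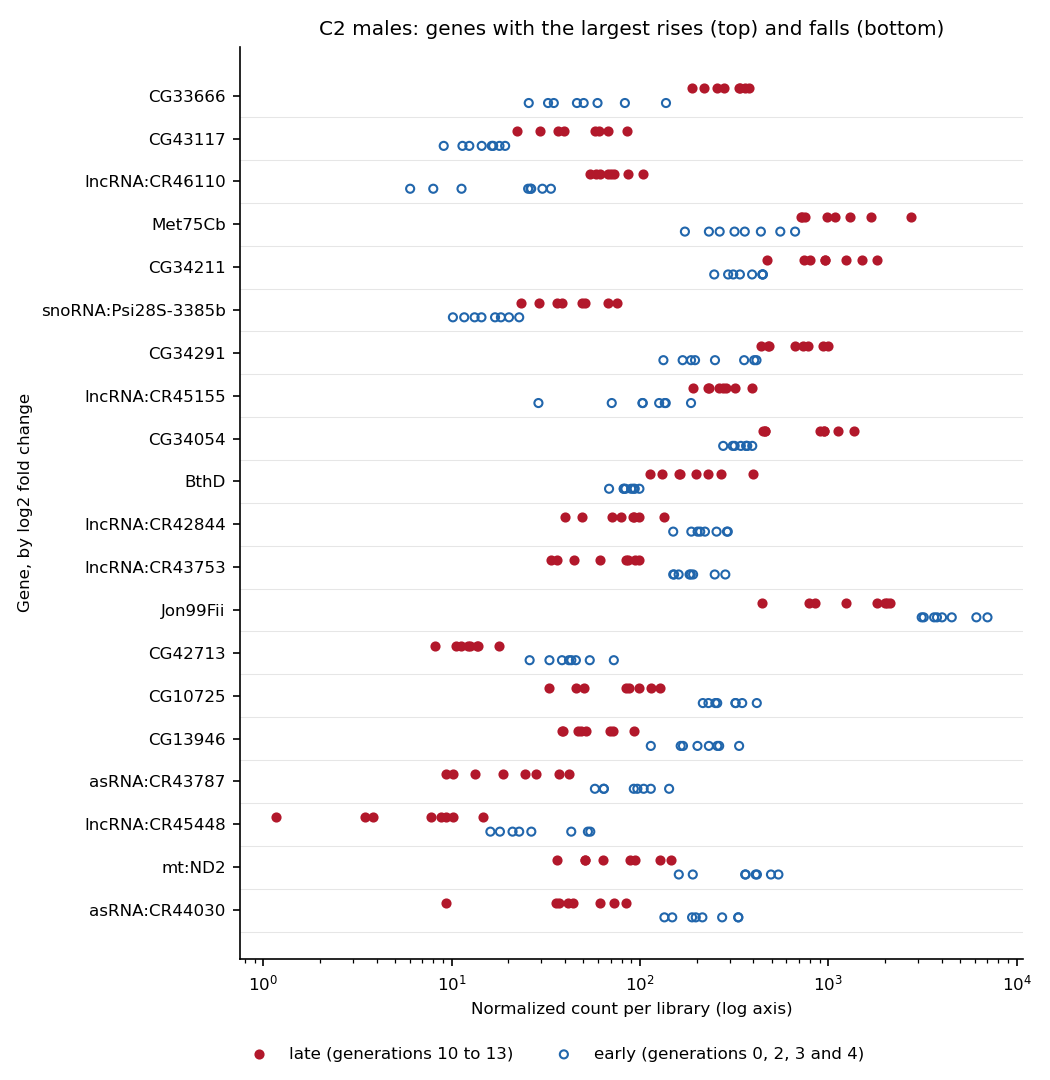
Normalized count (log axis) in each of the 8 late (filled) and 8 early (open) libraries of C2 males for the 10 largest rises and 10 largest falls among genes whose groups did not overlap. The late libraries of CG33666 at the top lay at 189 to 378 against 25.7 to 138 early, and those of asRNA:CR44030 at the bottom at 9.39 to 84.5 against 135 to 333.

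Changes that C2 did not share were sought with a test of the difference itself. It set the late minus early change of C2 against the mean change of the other 5 male populations. Generation was a factor common to all 6. The p-values of this test measure the spread between generation sums, not the spread of the change between populations. A gene that differs from the mean of the 5 may still lie within their range. Of 13326 genes, 31 differed (0.233%), 25 with C2 higher and 6 with C2 lower, and 881 had an unadjusted p under 0.05. Of these 31, 12 were also called in C2 alone. A gene was taken as not shared when, besides, none of the other 5 populations called it in the direction of C2. These were 7 genes, 5 higher and 2 lower late in C2. All 7 lost the call of the difference when C2 was set against C1 alone, where 8 other genes were called. Without generation 11 none of the 7 was called in C2. Without the 2 pools of S2 with female RNA, 36 genes differed, all 31 among them, and 9 were not shared. These were the 7 and 2 more that fell in C2. One was phr, which encodes a photolyase, with 80.2 ± 26.4 late and 324 ± 145 early (log2 fold change -2.03, adjusted p = 0.0334, difference -1.42, adjusted p = 0.0189). The other was CG9733, with 69.2 ± 10.7 late and 235 ± 212 early (-1.77, adjusted p = 0.0318, difference -1.60, adjusted p = 0.0451).

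**Figure D4:**
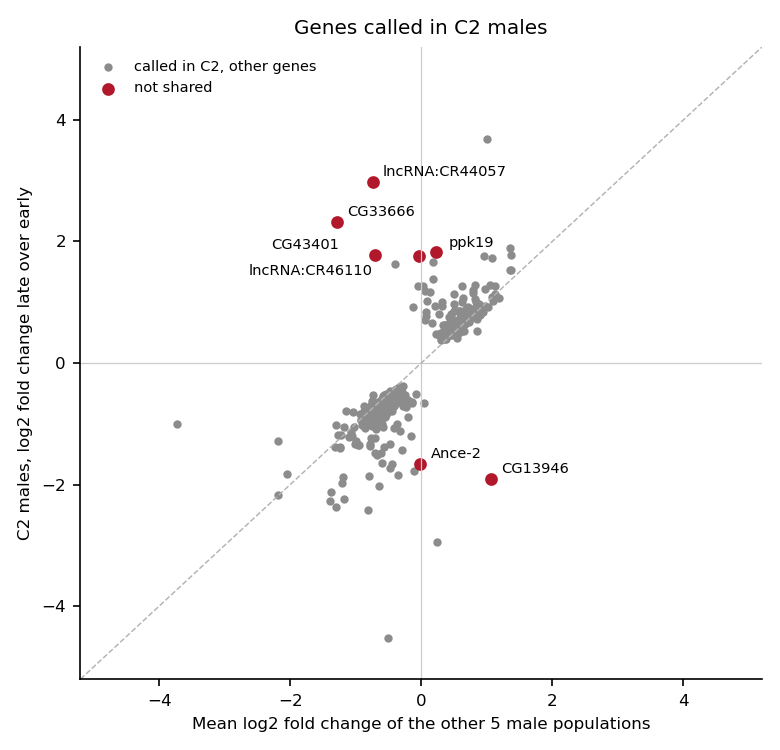
Log2 fold change of late over early in C2 males (vertical) against the mean of the 5 other male populations (horizontal) for the 433 genes called in C2, with equal change on the dashed line and the 7 genes not shared in red. Most genes lie in the quadrants of equal sign, and lncRNA:CR44057 (2.97 in C2), CG33666 (2.31) and CG43401 (1.77) rose in C2 where the mean of the others was below 0.

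CG33666, a short coding gene on chromosome X (X:6476243-6476967, minus strand, BDGP6.54) that overlaps CG42340 on the same strand, rose most clearly. Its late libraries had 189, 307 and 378 normalized counts as the lowest, median and highest and its early libraries 25.7, 48.3 and 138, without overlap (log2 fold change 2.31 ± 0.32, adjusted p = 0.0207 by edgeR). The difference from the other 5 was 3.73 on the log2 scale (adjusted p = 1.11e-05). L1 moved the opposite way, with 25.4 ± 13.4 late and 394 ± 181 early (-3.96, adjusted p = 0.0102). C1 was high at both ends, with 564 ± 182 late and 530 ± 194 early, as was S1 with 355 ± 165 late and 421 ± 85.6 early. The split of reads between CG33666 and CG42340 is uncertain.

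CG43401, a short coding gene on chromosome arm 2L (2L:1428474-1429159), behaved in a like manner. Late C2 libraries had 55.1, 133 and 226 normalized counts as the lowest, median and highest and early ones 15.8, 35.0 and 80.6, with overlap between the groups (log2 fold change 1.77 ± 0.38, adjusted p = 0.0448). The difference from the other 5 was 2.54 (adjusted p = 0.000116). L2 and S2 fell instead. L2 had 10.6 ± 3.65 late and 47.7 ± 27.8 early (-2.17, adjusted p = 0.0236), and S2 had 22.7 ± 17.7 late and 80.5 ± 27.6 early (-1.80, adjusted p = 0.0322). C1 averaged 288 late and 207 early.

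ppk19 and lncRNA:CR46110 lie close to each other on chromosome arm 3R. ppk19 (3R:29672456-29674223), a pickpocket gene of the degenerin and epithelial sodium channel family, overlaps Bub3 on the other strand. It had 52.4, 102 and 142 normalized counts as the lowest, median and highest late library and 6.86, 19.6 and 53.2 early (log2 fold change 1.83 ± 0.41, adjusted p = 0.0482). Only the lowest late and the highest early library overlapped. The difference was 1.69 (adjusted p = 0.00842). lncRNA:CR46110 (3R:29774324-29775051, minus strand), which overlaps kay on the other strand, had 54.4, 69.3 and 103 late and 6.03, 25.9 and 33.7 early, without overlap (1.76 ± 0.37, adjusted p = 0.044). It passed the filter for testing, a normalized count of at least 50, only through the late libraries, where it was high. The difference was 1.81 (adjusted p = 0.00803). For both genes C1, L1 and S1 were high from the start, at early means of 157 in C1, 141 in L1 and 155 in S1 for ppk19 and of 146 in C1 and 171 in L1 for lncRNA:CR46110, for which the early generations of S1 had means from 96.7 to 136. L2 and S2 were low there, at 47.4 and 52.7 for ppk19 and 39.3 and 32.2 for lncRNA:CR46110. In generation 5, C2 held its lowest means of both genes, 3.67 and 4.35.

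lncRNA:CR44057 (2L:4185401-4186187), which overlaps lncRNA:CR45791 on the other strand, had 29.1, 86.6 and 170 normalized counts as the lowest, median and highest late library and 2.84, 6.41 and 29.7 early. It passed the filter for testing only through late libraries, where it was high. The groups overlapped by a single pair of libraries (log2 fold change 2.97 ± 0.51, adjusted p = 0.0318), and the difference was 3.76 (adjusted p = 0.0213). C1 also stood higher late, 131 ± 58.0 against 50.4 ± 47.1 early, but did not pass its test (1.40, adjusted p = 0.115). This was the 1 gene of the 7 tested in C2 females, where its log2 fold change was 0.48 (adjusted p = 0.471).

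CG13946 (2L:776536-776941), a short coding gene, fell in C2 and in no other population had that sign. Late C2 libraries had 38.6, 50.2 and 93.2 normalized counts as the lowest, median and highest and early libraries 114, 217 and 336, without overlap (log2 fold change -1.91 ± 0.22, adjusted p = 0.0161). The difference was -2.95 (adjusted p = 0.000115). S2 rose strongly, with 2682 ± 1935 late and 236 ± 152 early (3.54, adjusted p = 0.0184). C1 and S1 were low throughout, with 63.6 ± 16.6 late and 59.6 ± 41.7 early in C1 and 59.4 ± 26.6 late and 42.3 ± 12.0 early in S1. Pool 2 of generation 6 of C2 reached 987, above every early library.

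Ance-2 (2L:13909333-13911719), a gene related to angiotensin-converting enzyme, was low in all populations. It passed the filter for testing through a single C2 library, the early pool 1 of generation 2, with 58.8. The next early library had 39.7, under the threshold of the filter, as were all late libraries. Its place among the genes tested thus rested on an outlying value in the group where it was high. Late C2 libraries had 7.03, 9.25 and 23 normalized counts as the lowest, median and highest and early libraries 22.6, 35.0 and 58.8, which overlap through pool 2 of generation 12 (log2 fold change -1.66 ± 0.30, adjusted p = 0.0341). The difference was -1.66 (adjusted p = 0.0213). The other 5 populations together ranged from 7.39 to 44.8 late, with a median of 18, and from 8.83 to 53.5 early, with a median of 19.6.

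**Figure D5:**
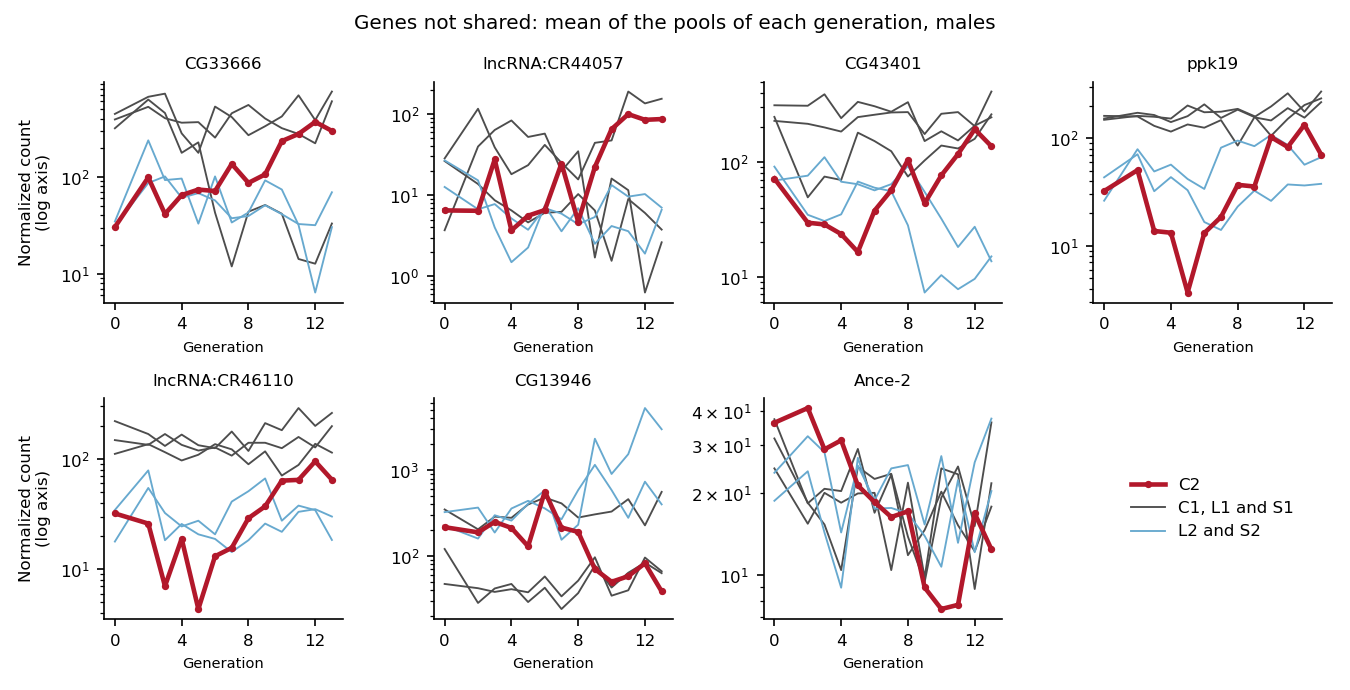
Mean normalized count of the pools of each generation (log axis) for the 7 genes not shared, in C2 males (thick line), in C1, L1 and S1 (dark) and in L2 and S2 (blue). The male pools of L1, S1 and S2 with female RNA are kept. For CG33666, CG43401, ppk19 and lncRNA:CR46110, C2 ended in generation 13 above L2 and S2 and below C1 and S1, for example at 298 for CG33666, where L2 stood at 69.3, C1 at 759 and S1 at 602.

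For 5 further genes both tests passed, but another population called the change as well. Su(dx), a ubiquitin ligase that regulates Notch, averaged 8204 ± 1899 late and 3751 ± 453 early in C2 (log2 fold change 1.13, adjusted p = 0.0207) and was called higher in C1 (0.83), L1 (1.16) and S1 (0.64), while L2 (-0.05) and S2 (-0.10) were not called. IP3K1, an inositol trisphosphate kinase, averaged 3767 ± 829 late and 1986 ± 223 early (0.94, adjusted p = 0.0161) and was called higher in C1 and L1. Marc averaged 700.0 ± 69.1 late and 1603 ± 604 early (-1.20) and was called lower in C1 and L2. CG43400 (1.17) was called higher in L1 and lower in L2. CG33223 fell in C2 (-0.999) but much further in L1 (-4.93), S1 (-5.27) and S2 (-7.73), so its difference was 2.90 in the other direction.

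The remaining 19 of the 31 genes were not called in C2 itself. Among them lncRNA:CR46088 differed most, by 3.98 (adjusted p = 0.000234), with 53.8 ± 29.7 normalized counts late and 62.0 ± 27.3 early in C2. It was called lower in L1, L2, S1 and S2, with log2 fold changes from -4.70 to -6.09, but not in C1 (-0.83, adjusted p = 0.263). mthl8, a methuselah-like receptor, was close to lost in L2 (0.77 late, 372 early) and stood at 667 ± 222 late and 422 ± 110 early in C2. Its log2 fold change of 0.66 in C2 lay between those of L2 (-8.82) and S2 (1.34). Poxm, a paired-box transcription factor, averaged 408 ± 65.7 late and 749 ± 308 early in C2 (-0.88, adjusted p = 0.0623) and differed by -0.94 (adjusted p = 0.000256). Of the 31 genes (0.233% of all tested), 12 lay on chromosome arm 2L, where 2542 genes were tested, and 9 on 3L (2561 tested). Arm 3R held 6 (3269 tested), X 2 (2025 tested) and 2R 2 (2630 tested). Clustering on an arm was not tested.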

How the data were processed

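RNA was taken from pools of whole adult males. Per the labels and the methods of the study, the authors demultiplexed poly(A) reads with CASAVA 1.8.2, checked them with FastQC, aligned them with STAR and counted uniquely mapped reads per gene with HTSeq, and deposited the raw counts. The deposited normalized values are a signal, the raw counts divided by 1 DESeq size factor for each library by the authors. They leave out 4266 of 17478 genes (1.05% of counts), so normalized counts were computed here for all genes with the same factors. The pools of a generation were more different than counting error (chi-square per degree of freedom 18.7 to 99.7), and their counts were summed.

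Genes with a normalized count of at least 50 in at least 1 of the 16 libraries were tested with edgeR 4.0.16 (glmQLFit, glmQLFTest, two-sided, R 4.3.3) on the sums, with the authors' factors as offsets. Each male population and C2 females were fitted alone. The difference of C2 from the mean of the other 5 was fitted over 48 generation sums with population, generation and a late term for each population. Levels are normalized counts per library (mean ± SD over 8 libraries) and fold changes are log2 values of late over early ± SE, not corrected for gene length, so levels are not compared between genes. Adjusted p-values are from edgeR by Benjamini and Hochberg over all genes tested.

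The members and the gene lists were chosen with earlier results of these data known. Genes named are the 10 largest rises and 10 largest falls without overlap of the groups, up to 8 genes not shared in each direction, up to 3 called genes of each list with the lowest adjusted p, and CG1304. Others are named after their values were seen. Alternatives used edgeR's TMM factors, DESeq2 1.42.0, other filters, single libraries, a replicate block, other fits and left-out generations and pools. Symbols matched 17219 genes. The authors used FlyBase R6.07, and positions here were read from BDGP6.54, which annotates that genome release anew. Where the labels number a pool 3 or 4 it was taken as a back-up pool, which the labels do not state.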

Additional observations from a re-analysis of the deposited data

Results flagged for a closer look

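In 5 of 118 groups of 8 libraries a single library lay apart from the rest by Dixon's criterion, which chance alone does in about 1 in 20 groups. Ance-2 had 23 normalized counts in the late pool 2 of generation 12, where the next late library had 13.4, and 58.8 in the early pool 1 of generation 2, where the next had 39.7. Pool 1 of generation 0, an early library, gave the remaining 3, with 20960 for RpS14a (next 15967), 821 for mRpL49 (next 702) and 2696 for S6k (next 3244).

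By edgeR's test of the difference, the late minus early change of C2 males differed from the mean of the other 5 male populations for 31 genes. Of these, 7 also met the rule for genes not shared. On the log2 scale the difference was 3.76 for lncRNA:CR44057 (adjusted p = 0.0213), 3.73 for CG33666 (1.11e-05), 2.54 for CG43401 (0.000116), 1.81 for lncRNA:CR46110 (0.00803), 1.69 for ppk19 (0.00842), -1.66 for Ance-2 (0.0213) and -2.95 for CG13946 (0.000115). At the late generations the level of C2 lay within the range of the other populations' late libraries for CG33666, CG43401, ppk19, lncRNA:CR46110, lncRNA:CR44057 and CG13946. For Ance-2 the lowest late library of C2 (7.03) lay below the lowest of the others (7.39).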

How the results depend on the processing

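The count of 433 genes depended strongly on the processing. It was 699 with TMM normalization, 2135 with DESeq2, 538 with filterByExpr, 553 without a filter, 4721 with each library by itself, 1885 with all 12 male groups in the fit and 2889 as a slope on generation. It was 13 without the pools labelled 3 or 4 and 0 at an adjusted p under 0.001 (3993 at an unadjusted p under 0.05). With a generation left out it ran from 0 (generation 11) to 1937 (generation 10), and with a pool left out, a choice made after seeing the data, from 110 to 730. The 31 genes of the difference from the other populations became 90 with DESeq2, 195 with each library by itself, 17 without the pools labelled 3 or 4, 19 without the generation factor, 8 against C1 alone, 5 at an adjusted p under 0.001 and 10 to 72 with a generation left out. The 7 genes not shared became 32 with DESeq2, 12 without a filter, 61 with each library by itself, 1 without the pools labelled 3 or 4, 0 at an adjusted p under 0.001 and 0 to 11 with a generation left out. Without the 2 pools of S2 with female RNA the counts of the difference and of genes not shared were 36 and 9, the 9 also tried after seeing the data. Without pool 2 of generation 12, also tried after seeing the data, the 3 counts were 668, 30 and 9. With each library by itself and the pool number as a replicate block they were 4474, 185 and 51. The pool numbers did not pair the samples, since deviations of same-numbered pools correlated at -0.28 to 0.33 over 28 pairs of generations, over 0.1 in 8. Fits of single libraries treat pools of a generation as independent. Named genes and differences kept their direction in every alternative, 1515 values on the same side of the threshold and 630 no longer past it. These genes were picked from the same libraries, so their unchanged direction was largely set in advance and is no separate support. The difference of Ance-2 was lost in 9 of 20 alternatives, of lncRNA:CR44057 in 8, of ppk19 in 5, of lncRNA:CR46110 in 3, and of CG33666, CG43401 and CG13946 in 1 each. The cause of these changes was not tested.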
